A study of Mus musculus with 8 samples.

Results

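Type I interferon-stimulated genes were followed in liver arrays of mice with colitis. The list holds 37 genes that are known to respond to type I interferon. A gene counted as measured when a row of the value table named it and no other gene, and of several such rows the one with the largest average was used. By this rule 33 of the 37 were measured, among 22180 genes in all. Oas1a, Dtx3l and Ifi27l2a had rows that also name a neighbouring family member or gene, and Ifi44 was not analysed here.

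The 8 arrays (Affymetrix Mouse Gene 2.0 ST) carried liver RNA of 4 mice labelled as IL-10 knockout and 4 wild-type mice. Both groups are labelled C57BL/6, female and 6 weeks old, and both drank 3% dextran sulfate sodium (DSS), which injures the colon lining, for 7 days. The comparison is therefore between genotypes under DSS, with no untreated mice. The allele behind the knockout is not given in the labels, and nothing ties an array to a litter or day, so a p-value reflects only how far these samples scatter.

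Type I interferons are cytokines that cells release after sensing viral or bacterial nucleic acids or lipopolysaccharide. They bind the receptor Ifnar1 and Ifnar2, whose kinases activate Stat2, which acts with Irf9 in a complex that binds interferon-stimulated response elements (ISRE) in promoters. The induced genes include sensors that feed back on the pathway, enzymes that block virus replication, and brakes such as Usp18. Many are also induced by type II and type III interferons, and hepatocytes, Kupffer cells and recruited leukocytes can all express them.

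Values are log2 levels from robust multi-array averaging (RMA), a difference is arrays labelled knockout minus wild-type arrays, and a gene counts as called at an adjusted p below 0.05 from limma over all 22180 genes. Errors are SD over 4 arrays per group, or SE of a difference. Il10 itself read 5.79, 5.69, 6.00 and 6.41 in replicates 1 to 4 labelled knockout and 4.95, 5.08, 4.90 and 4.95 in wild-type replicates 1 to 4 (difference 1.00, SE 0.14; limma adjusted p = 0.00851). An exact permutation test, two-sided, gave p = 0.0286 for Il10, which is the lowest value possible with 70 arrangements. The targeted gene was thus not lower in the arrays labelled knockout, the position of the mutation relative to its probes is not given, and all directions given here follow the labels. The label female did not match 4 arrays: replicates 1 and 2 of both groups had Y-linked signal (Eif2s3y, Kdm5d and Uty between 8.03 and 8.71) and low Xist (5.62 to 6.32), while replicates 3 and 4 of both groups had Xist at 11.68 to 11.82 and Y-linked genes at 4.08 to 4.61. The median of 15 hepatocyte markers was near the top of the scale in every array (12.85 to 13.15 in arrays labelled knockout and 12.73 to 12.85 in wild-type arrays). Among these 15, Ass1, named after its values were seen, read lower (7.37 to 8.28 and 7.40 to 8.21).

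Stretches of 250 bases before the transcription start are shown for 5 members that moved apart in these arrays: Rsad2 and its chromosome neighbour Cmpk2, and Isg15, which read lower in every array labelled knockout than in any wild-type array, and Ifitm2 and Ifitm6, which read higher. The sequences are from RefSeq (GRCm38.p6), 5′ to 3′ on the gene's strand: Rsad2 at chr12:26456453-26456702 (minus strand), Cmpk2 at chr12:26468965-26469214 (plus), Isg15 at chr4:156200819-156201068 (minus), Ifitm2 at chr7:140955962-140956211 (minus) and Ifitm6 at chr7:141016893-141017142 (minus). Capitals mark matches, on either strand, to the core of an ISRE, which is GAAA, any pair of bases and GAAA again, or to TTCNNNGAA, the core of the gamma-activated site bound by STAT dimers.

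Rsad2: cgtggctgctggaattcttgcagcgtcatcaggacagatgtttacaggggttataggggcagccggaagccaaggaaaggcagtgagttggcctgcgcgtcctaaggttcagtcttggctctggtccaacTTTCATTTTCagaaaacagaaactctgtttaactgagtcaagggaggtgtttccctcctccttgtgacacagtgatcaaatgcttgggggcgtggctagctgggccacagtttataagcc

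Cmpk2: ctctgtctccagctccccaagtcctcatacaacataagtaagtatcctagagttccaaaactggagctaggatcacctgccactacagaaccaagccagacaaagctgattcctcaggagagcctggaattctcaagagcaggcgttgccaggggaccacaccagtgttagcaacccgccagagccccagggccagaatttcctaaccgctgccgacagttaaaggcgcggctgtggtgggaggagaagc

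Isg15: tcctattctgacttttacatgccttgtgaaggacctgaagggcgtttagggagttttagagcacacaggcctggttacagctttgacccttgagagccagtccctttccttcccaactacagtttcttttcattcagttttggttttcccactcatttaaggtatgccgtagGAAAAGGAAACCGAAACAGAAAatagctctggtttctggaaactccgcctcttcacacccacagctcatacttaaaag

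Ifitm2: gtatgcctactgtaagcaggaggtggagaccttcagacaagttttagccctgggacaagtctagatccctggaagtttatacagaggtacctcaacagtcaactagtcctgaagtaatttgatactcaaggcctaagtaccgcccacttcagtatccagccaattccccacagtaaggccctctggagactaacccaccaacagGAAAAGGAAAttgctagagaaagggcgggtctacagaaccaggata

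Ifitm6: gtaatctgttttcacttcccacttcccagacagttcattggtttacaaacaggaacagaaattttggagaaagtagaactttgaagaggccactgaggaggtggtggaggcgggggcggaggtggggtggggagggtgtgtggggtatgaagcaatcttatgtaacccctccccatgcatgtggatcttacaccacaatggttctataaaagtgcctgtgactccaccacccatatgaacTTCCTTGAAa

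In these windows Isg15 had 3 overlapping ISRE cores, the first starting 78 bases before the start of transcription, and Rsad2 and Ifitm2 had 1 each, at 120 and 46 bases. The windows of Cmpk2 and Ifitm6 had none, and Ifitm6 had 1 match to TTCNNNGAA, 10 bases before the start. No match to one motif overlapped a match to the other in these 5 windows. Of the 33 members, 24 had a window in the table, with 27 windows in all. The ISRE core occurred in 10 of the 27, against 2.98% of 32851 windows of all genes, and TTCNNNGAA in 3 of the 27, against 7.02%. A match describes letters and not a bound site.

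Across the 33 members 2 fell (Rsad2 and Mx2), 2 rose (Ifitm2 and Ifitm6) and 29 did not pass the test. Over all genes 3.15% were called, 1.59% lower and 1.56% higher. The median difference was -0.17 over the members and 0.03 over all genes, with 26 members and 44.0% of all genes on the negative side. The groups did not overlap for 8 members: 6 were lower in all 4 arrays labelled knockout (background 5.74% of all genes) and 2 were higher (background 7.2%). Outside the Ifitm family, replicate 3 labelled knockout read far below the other arrays, and without it the median over the members was -0.01, with 17 of 33 on the negative side (45.2% of all genes). In that fit 1 member was called lower and 2 higher (background 1.11% and 1.49%).

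**Figure D1:**
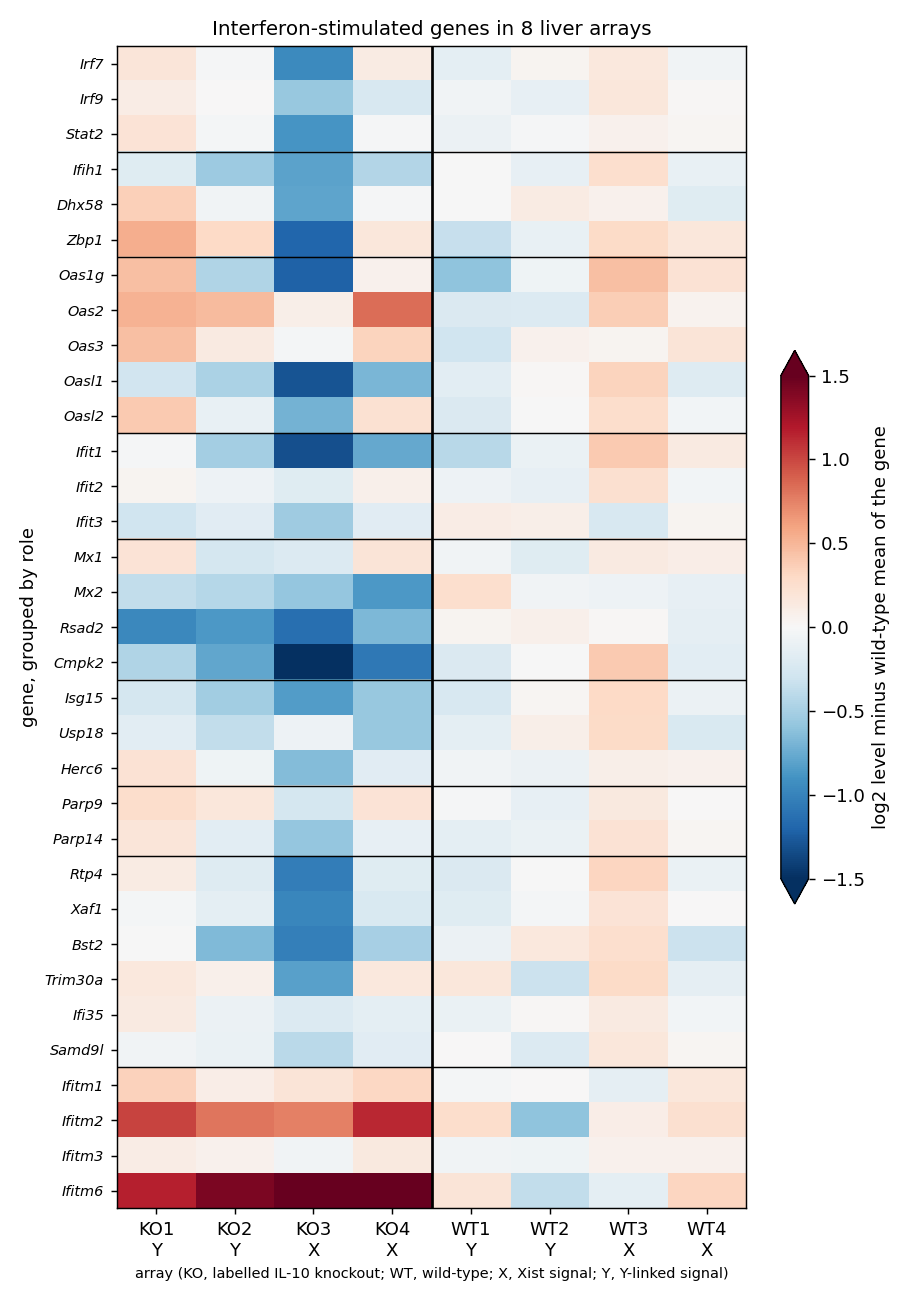
Log2 level of each of the 33 measured members minus its own wild-type mean (colour) in the 8 arrays; rows run by role as transcription factors, sensors, OAS, IFIT, MX with Rsad2 and Cmpk2, the ISG15 system, PARP proteins, other effectors and IFITM, and the colour scale ends at 1.5 in either direction. Column labels KO and WT give genotype and replicate, with X for Xist signal and Y for Y-linked signal; the column of replicate 3 labelled knockout is blue for most rows above the Ifitm family, while Rsad2, Mx2 and Cmpk2 are blue in all 4 arrays labelled knockout and Ifitm2 and Ifitm6 are red in all 4.

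Rsad2 and Mx2 were the called falls. Rsad2 encodes viperin, an enzyme that turns a nucleotide into a chain terminator for viral polymerases. It read 7.17, 7.27, 7.00 and 7.46 in replicates 1 to 4 labelled knockout and 8.17, 8.22, 8.15 and 7.997 in wild-type replicates 1 to 4. Every array labelled knockout was below every wild-type array, and the 4 wild-type values lay close together. Rsad2 averaged 7.23 ± 0.19 in arrays labelled knockout and 8.14 ± 0.10 in wild-type arrays (SD, n = 4 each; difference -0.91, SE 0.10; 1.88-fold lower; limma adjusted p = 0.00587). The call held without each array in turn (adjusted p up to 0.0239). Among arrays with Xist signal alone Rsad2 differed by -0.84, and among those with Y-linked signal by -0.98.

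Mx2 is a gene of the dynamin-like GTPase family. It read 7.20, 7.13, 6.99 and 6.70 in replicates 1 to 4 labelled knockout and 7.81, 7.50, 7.49 and 7.44 in wild-type replicates 1 to 4, with no overlap. The difference was -0.56 (SE 0.12; 1.47-fold lower; limma adjusted p = 0.0412), with -0.62 among Xist arrays and -0.49 among Y-linked arrays. Only the omission of replicate 1 labelled knockout left Mx2 called, and omitting any of the other 7 arrays ended its call (adjusted p up to 0.110). Its relative Mx1, for which C57BL/6 mice carry an inactive allele, read between 4.54 and 5.01 in arrays labelled knockout and between 4.62 and 4.94 in wild-type arrays. Both ranges of Mx1 lie below the array medians of 6.09 to 6.22, and the deposited values carry no detection calls.

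Cmpk2, a mitochondrial nucleotide kinase whose gene lies next to Rsad2 on chromosome 12, had the most negative difference of the 33 members. It read 7.74, 7.41, 6.53 and 7.11 in replicates 1 to 4 labelled knockout and 7.96, 8.17, 8.57 and 8.03 in wild-type replicates 1 to 4. The groups did not overlap, replicate 3 labelled knockout was the lowest and wild-type replicate 3 the highest. The difference was -0.99 (SE 0.23; limma adjusted p = 0.0507), and it passed with a block for Xist against Y-linked signal (adjusted p = 0.0405; with this block 3 members were lower and 2 higher, against 2.55% and 2.13% of all genes). Cmpk2 differed by -1.48 among Xist arrays and by -0.49 among Y-linked arrays.

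**Figure D2:**
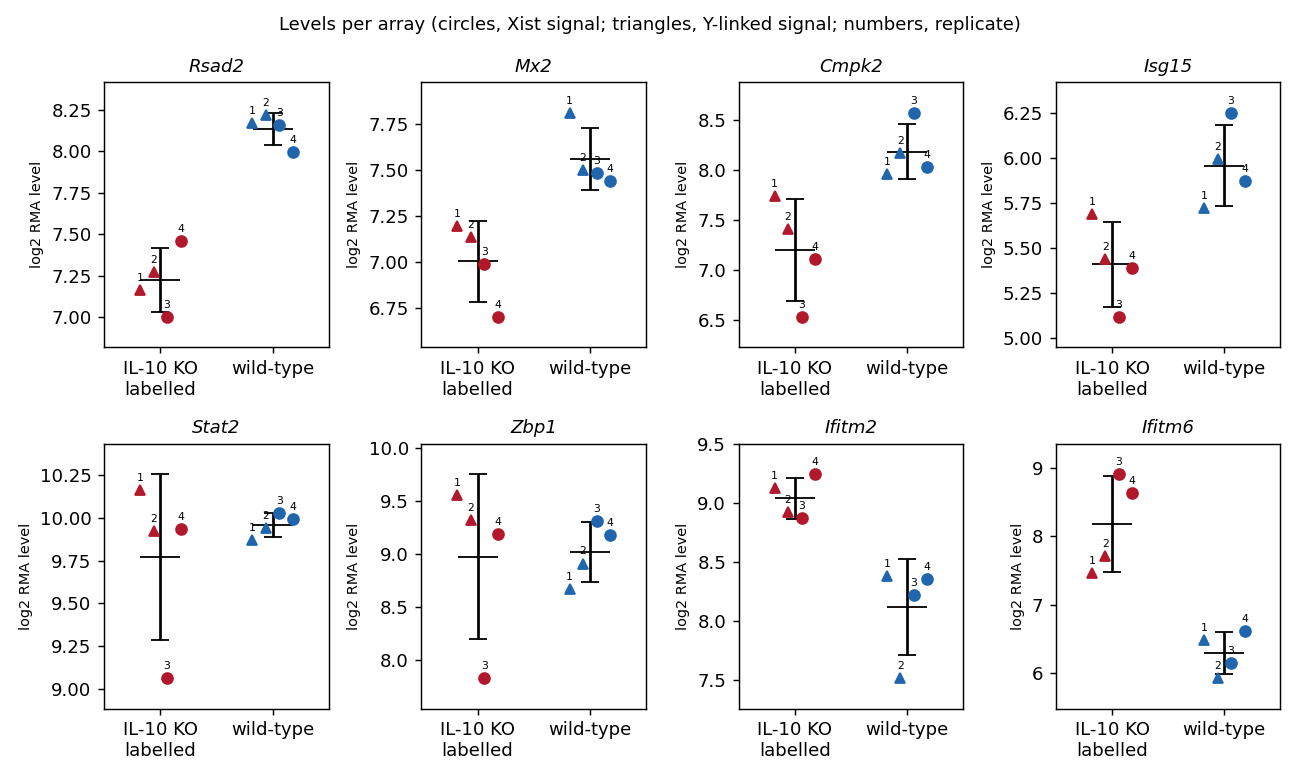
Log2 RMA level (y axis, a scale for each gene) of 8 members in each array; points are arrays, bars are mean and SD over 4 arrays. Rsad2, Mx2, Cmpk2 and Isg15 are lower in all 4 arrays labelled knockout, Ifitm2 and Ifitm6 are higher in all 4, and for Stat2 and Zbp1 replicate 3 labelled knockout lies apart while the other arrays overlap.

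Sensors of foreign RNA and DNA divided into one gene with groups apart and a pair with overlap. Ifih1, the long double-stranded RNA sensor MDA5, read 9.45, 9.09, 8.83 and 9.20 in replicates 1 to 4 labelled knockout and 9.62, 9.51, 9.88 and 9.52 in wild-type replicates 1 to 4. The groups did not overlap, and the difference of -0.49 (SE 0.13) did not pass (limma adjusted p = 0.0762). Zbp1, which recognises Z-form nucleic acids and can start necroptosis, read 9.56, 9.32, 7.83 and 9.19 in replicates 1 to 4 labelled knockout and 8.67, 8.91, 9.31 and 9.18 in wild-type replicates 1 to 4. Replicate 3 labelled knockout was below all others, and the remaining 3 lay at or above the middle of the wild-type range. The difference of Zbp1 was -0.044 (SE 0.33) with all arrays and 0.34 without that array, with adjusted p = 0.952 and 0.298. Dhx58, the RNA helicase LGP2 that tunes MDA5 signalling, had -0.12 with all arrays and 0.10 without it.

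The transcription factors of the pathway did not pass, and in each the same array stood low. Stat2 read 10.16, 9.92, 9.07 and 9.93 in replicates 1 to 4 labelled knockout and 9.87, 9.94, 10.03 and 9.99 in wild-type replicates 1 to 4. The SD was 0.48 in arrays labelled knockout and 0.07 in wild-type arrays, and only replicate 3 labelled knockout left the common range by a wide margin. Irf7, which drives transcription of interferon alpha genes, read 9.67, 9.46, 8.53 and 9.61 in replicates 1 to 4 labelled knockout and 9.33, 9.52, 9.64 and 9.42 in wild-type replicates 1 to 4. Irf9, the DNA-binding partner of Stat2, read 9.54, 9.44, 8.86 and 9.19 in replicates 1 to 4 labelled knockout and 9.37, 9.30, 9.60 and 9.44 in wild-type replicates 1 to 4. Their differences lay between -0.19 and -0.16 (limma adjusted p = 0.610 for Stat2, 0.696 for Irf7 and 0.508 for Irf9). The 95% interval of the Stat2 difference was -0.62 to 0.25.

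Members of the OAS family, many of which make oligoadenylates that activate the antiviral nuclease RNase L, differed among themselves in sign. None of the 5 measured passed. Oas2 read 8.62, 8.56, 8.18 and 8.92 in replicates 1 to 4 labelled knockout and 7.88, 7.88, 8.46 and 8.14 in wild-type replicates 1 to 4, and its groups overlapped through replicate 3 of each. Its difference was 0.48 (SE 0.17; limma adjusted p = 0.144), with 0.71 in arrays with Y-linked signal (adjusted p = 0.0385 in those 4 arrays alone) and 0.25 in arrays with Xist signal. Oas3 had 0.22 (SE 0.13). Oasl1, an OAS-like protein that in mice limits translation of Irf7, went the other way. It read 8.25, 8.06, 7.24 and 7.85 in replicates 1 to 4 labelled knockout and 8.37, 8.55, 8.87 and 8.35 in wild-type replicates 1 to 4. Its groups did not overlap, and the difference of -0.68 (SE 0.20) had adjusted p = 0.0936. Oas1g (-0.29) and Oasl2 (-0.051) were within the spread of the arrays. Oas1g has a near-identical neighbour, Oas1a, and signal may be shared between them. The row that names both read 5.36 ± 0.24 in arrays labelled knockout and 5.32 ± 0.17 in wild-type arrays (SD, n = 4 each).

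IFIT proteins bind viral RNA with an incomplete cap and hold back its translation. Ifit1 read 8.25, 7.76, 6.94 and 7.50 in replicates 1 to 4 labelled knockout and 7.84, 8.16, 8.65 and 8.40 in wild-type replicates 1 to 4. Replicate 1 labelled knockout lay inside the wild-type range and the other 3 below it. The difference of Ifit1 was -0.65 (SE 0.26; limma adjusted p = 0.183) over all arrays, -1.31 in those with Xist signal (adjusted p = 0.0387 in those 4 arrays alone) and 0.0019 in those with Y-linked signal. Ifit3 had -0.29 (SE 0.11; adjusted p = 0.159) and Ifit2 -0.034 (SE 0.10).

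Isg15, a ubiquitin-like protein that is attached to newly made proteins, read 5.69, 5.44, 5.12 and 5.39 in replicates 1 to 4 labelled knockout and 5.72, 5.99, 6.25 and 5.87 in wild-type replicates 1 to 4. The groups were apart by a narrow gap between replicates 1, and the difference of -0.55 (SE 0.14) did not pass (limma adjusted p = 0.0626). Most of these values lie below the array medians, where RMA values respond weakly. Usp18, the protease that removes Isg15 and restrains Ifnar2, had -0.29 (SE 0.14; adjusted p = 0.254), and its lowest array was replicate 4 labelled knockout. Herc6, the main Isg15 ligase of mice, had -0.17 (SE 0.15; adjusted p = 0.553) and its lowest array was replicate 3 labelled knockout.

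None of the PARP proteins and other effectors passed. Bst2, which tethers budding virions to the cell surface, read 8.14, 7.49, 7.13 and 7.66 in replicates 1 to 4 labelled knockout and 8.07, 8.31, 8.40 and 7.83 in wild-type replicates 1 to 4. Replicate 1 labelled knockout lay inside the wild-type range and the other 3 below it (difference -0.55, SE 0.20; limma adjusted p = 0.155). Rtp4, a chaperone of membrane receptors, had -0.32, and Xaf1, which promotes apoptosis, -0.34. Parp14 (-0.17) and Parp9 (0.10), which attach ADP-ribose to proteins, Trim30a (-0.10), a brake on Toll-like receptor signalling, Samd9l (-0.18) and Ifi35 (-0.08) had adjusted p between 0.335 and 0.811. Parp9 acts with Dtx3l, and the row naming both read 9.52 ± 0.23 in arrays labelled knockout and 9.49 ± 0.12 in wild-type arrays (SD, n = 4 each). The row of Ifi27l2a and Ifi27l2b, which are mitochondrial proteins, read 5.49 ± 0.18 in arrays labelled knockout and 5.48 ± 0.29 in wild-type arrays (SD, n = 4 each).

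The Ifitm family, small membrane proteins encoded side by side on chromosome 7, held both called rises, Ifitm6 and Ifitm2. All 4 measured members had positive differences, as had 3 of the 29 members outside the family (Oas2, Oas3 and Parp9). Ifitm6 read 7.46, 7.71, 8.91 and 8.64 in replicates 1 to 4 labelled knockout and 6.49, 5.93, 6.15 and 6.61 in wild-type replicates 1 to 4. The lowest array labelled knockout was above the highest wild-type array, and replicates 3 and 4 labelled knockout were highest. The difference was 1.89 (SE 0.30; 3.70-fold; limma adjusted p = 0.0142), with 2.39 among Xist arrays and 1.38 among Y-linked arrays, and the call held without each array in turn (adjusted p up to 0.0481). The wild-type values are near the array medians, so the size of the fold is uncertain.

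Ifitm2 read 9.13, 8.93, 8.87 and 9.25 in replicates 1 to 4 labelled knockout and 8.38, 7.52, 8.22 and 8.36 in wild-type replicates 1 to 4. Its groups did not overlap, and wild-type replicate 2 was the lowest. The difference was 0.92 (SE 0.18; 1.90-fold; limma adjusted p = 0.0282), with 0.77 among Xist arrays and 1.08 among Y-linked arrays. The call was lost without wild-type replicates 1 or 3 or replicate 4 labelled knockout (adjusted p up to 0.0836). Ifitm3, which blocks fusion of viruses in endosomes, read 12.70 ± 0.09 in arrays labelled knockout and 12.64 ± 0.07 in wild-type arrays (SD, n = 4 each), near the top of the scale. Its difference was 0.066 (95% interval -0.10 to 0.23; adjusted p = 0.623). Ifitm1 had 0.24 (SE 0.09; adjusted p = 0.157). The 4 proteins are close relatives, and signal shared between their probes was not tested.

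Neutrophil and monocyte markers were high in the same group of arrays as Ifitm6 and Ifitm2. Of 16 neutrophil genes 12 rose and 1 fell, against 1.56% of all genes called higher and 1.59% lower. The fall was Prtn3, a protease of granulocyte precursors, named after its values were seen. Ngp, a neutrophil granule protein, read 7.91, 7.71, 9.21 and 9.24 in replicates 1 to 4 labelled knockout and 6.12, 5.76, 6.04 and 6.48 in wild-type replicates 1 to 4. As with Ifitm6, replicates 3 and 4 labelled knockout were the highest arrays for Ngp. For Ifitm2 the highest were replicates 1 and 4 labelled knockout. The summed level of the list (log2 of summed values) was 13.31 to 13.71 in arrays labelled knockout and 12.345 to 12.999 in wild-type arrays. Most of this sum came from 1 gene, Lcn2, named after its values were seen. Lcn2 read 12.90 to 13.19 in arrays labelled knockout and 11.80 to 12.59 in wild-type arrays. Among the defining markers Camp read low in both groups (4.54 to 5.24 and 4.37 to 4.57). Of 9 monocyte markers 5 rose, against 1.56% of all genes. All 9 had positive differences, as had 12430 of all 22180 genes. Ly6c2, a surface protein of inflammatory monocytes, read 7.94, 7.35, 6.97 and 8.04 in replicates 1 to 4 labelled knockout and 5.88, 5.17, 6.63 and 6.43 in wild-type replicates 1 to 4 (difference 1.54, SE 0.32; limma adjusted p = 0.0362). The groups of Ly6c2 did not overlap, and replicate 3 was the lowest array labelled knockout, as for Ifitm2 and unlike for Ifitm6. The chemokine receptor Ccr2 read 5.50 to 6.90 in arrays labelled knockout and 5.53 to 5.65 in wild-type arrays. Against the wild-type means the monocyte list had medians of 0.72, 0.54, 0.35 and 0.95 in replicates 1 to 4 labelled knockout and -0.02, -0.21, 0.03 and 0.09 in wild-type replicates 1 to 4. Its summed level was 13.467 to 13.625 in arrays labelled knockout and 13.207 to 13.401 in wild-type arrays. Most of that sum came from Fn1, named after its values were seen, which was not called (limma adjusted p = 0.495). Fn1 read 13.07 to 13.24 in arrays labelled knockout and 12.98 to 13.16 in wild-type arrays. In RNA of whole liver, more cells of a type and more RNA per cell cannot be told apart, and the part of these markers in the Ifitm values was not tested.

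Replicate 3 labelled knockout set much of the pattern outside the Ifitm family. It had the lowest value of all 8 arrays for 24 of the 33 members, against 18.7% of all 22180 genes. With each gene set against its wild-type average, the median of the 29 members other than Ifitm was 0.12, -0.15, -0.79 and -0.17 in replicates 1 to 4 labelled knockout and -0.11, -0.03, 0.22 and -0.04 in wild-type replicates 1 to 4. The same array held the highest value for 27.0% of all genes. Its median over all genes was 0.04, a value that RMA's scaling of the arrays to a common distribution keeps near 0. Mx2, Usp18, Mx1, Oas2 and Oas3, with the 4 Ifitm genes, had their lowest value in another array.

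Among arrays labelled knockout, the median of 12 Kupffer cell markers against the wild-type means was lowest in replicate 3. This median was 0.43, 0.71, 0.24 and 0.71 in replicates 1 to 4 labelled knockout and -0.06, -0.15, 0.19 and 0.04 in wild-type replicates 1 to 4. Replicate 3 was the lowest array labelled knockout for 7 of the 12 genes, against 27.6% of all genes. The summed level of that list was 13.84 to 14.11 in arrays labelled knockout and 13.34 to 13.61 in wild-type arrays. It was 13.841 in replicate 3 labelled knockout and 13.845 in replicate 1. Of its 12 genes 5 rose, against 1.56% of all genes. Plasmacytoid dendritic cells are strong producers of type I interferon, and none of 11 measured markers of them was called by limma. An unadjusted limma p under 0.05 was found for 2 of the 11, against 4700 of all 22180 genes. The summed level of those markers was 11.385 to 11.515 in arrays labelled knockout and 11.29 to 11.61 in wild-type arrays, and the receptor Siglech read 6.57 to 6.71 and 6.33 to 6.81. The part of these cells in the interferon-stimulated genes was not tested.

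**Figure D3:**
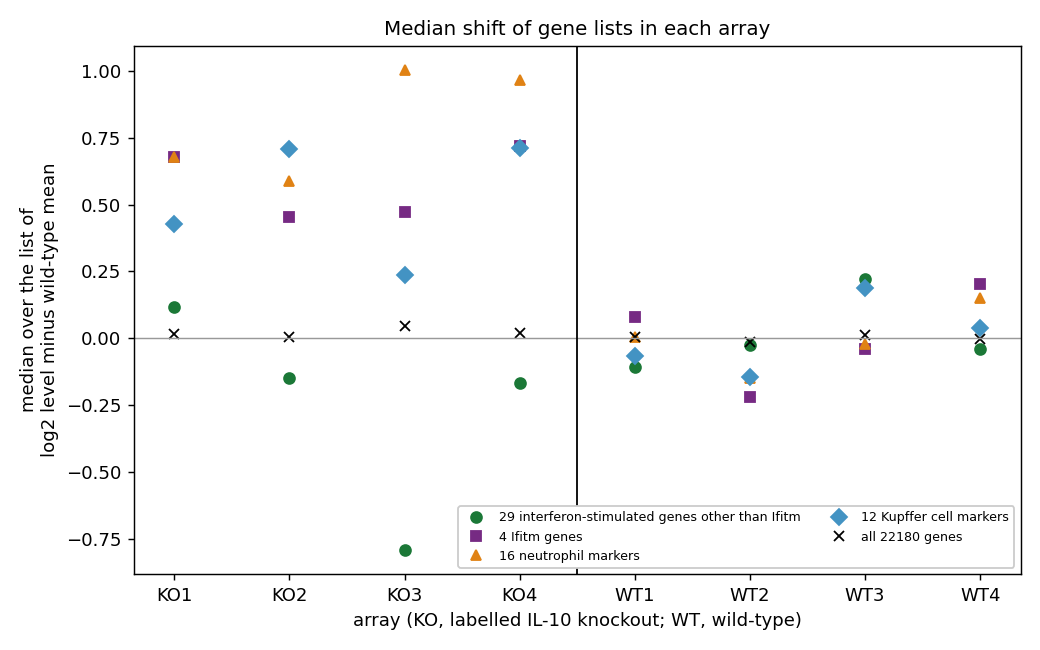
Median over each gene list of the log2 level minus the wild-type mean of the gene (y axis) in the 8 arrays (x axis). The 29 members other than Ifitm are lowest in replicate 3 labelled knockout at -0.79, while the Ifitm genes and neutrophil markers are at 0.46 or higher in all 4 arrays labelled knockout and all genes stay near 0.

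The difference between the groups went opposite ways in the 2 sets of arrays for many members. Among Xist arrays 28 of 33 members were on the negative side (44.2% of all genes) and the median difference was -0.46. Among Y-linked arrays 9 of 33 were negative (46.2% of all genes) and the median was 0.10. Replicate 3 labelled knockout is one of the arrays with Xist signal, so that array and sex signal cannot be told apart in this split. Limma's test of the difference between the sets called none of the 33 members (0.0271% of all genes), and 10 of them had an unadjusted p under 0.05, against 5.48% of all genes. The smallest adjusted p was 0.600, for Ifit1. Rsad2, Mx2, Ifitm2 and Ifitm6 had the same direction in both sets, as any gene whose groups do not overlap must have.

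**Figure D4:**
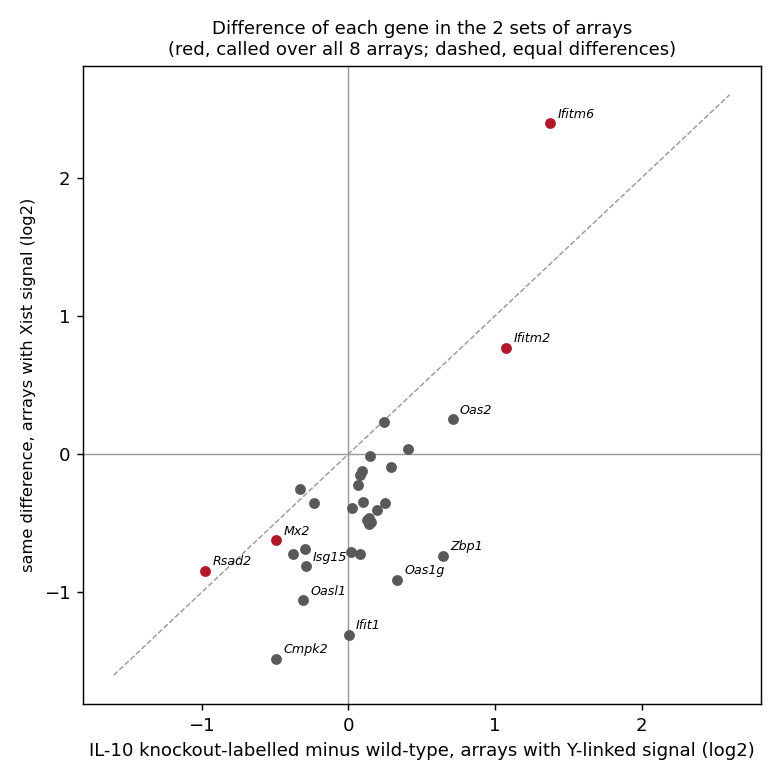
Difference of each of the 33 members (points), labelled knockout minus wild-type, among Y-linked arrays (x axis, log2) and among Xist arrays (y axis, log2). Most points lie below the dashed line of equal differences. The 4 called members (red) lie in the quadrants where both differences have the same sign. Their groups do not overlap, so that sign was fixed for any split of the arrays.

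The calls among other genes of the pathway were all rises. Of 130 further pathway genes measured, 12 rose, none fell in limma's test, and 118 did not pass. Over all genes 1.56% were called higher and 1.59% lower. In either direction 42 of the 130 had an unadjusted limma p under 0.05, against 4700 of all 22180 genes. The interferon genes themselves gave no call among 19 ligands, and Ifnb1 read 3.87 ± 0.11 in arrays labelled knockout and 3.75 ± 0.06 in wild-type arrays (SD, n = 4 each), near the bottom of the scale. Of 9 receptor and kinase genes none passed, and 2 had an unadjusted limma p under 0.05 (4700 of 22180 over all genes). Ifnar1 read 9.66 ± 0.18 in arrays labelled knockout and 9.53 ± 0.10 in wild-type arrays, and Ifnar2 read 11.70 ± 0.07 and 11.50 ± 0.07 (limma adjusted p = 0.467 and 0.124).

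Of 20 genes that sense microbes and induce interferon, 5 rose, against 1.56% of all genes. Myd88, the adaptor of most Toll-like receptors, averaged 9.97 ± 0.26 in arrays labelled knockout and 9.20 ± 0.13 in wild-type arrays (SD, n = 4 each; difference 0.77; limma adjusted p = 0.0151). The RNA receptor Tlr8 rose by 0.69, the DNA receptor Tlr9 by 0.43, the lipopolysaccharide receptor Tlr4 by 0.42 and Sting1, the adaptor for cytosolic DNA, by 0.52. Ddx58, the RNA sensor RIG-I and a relative of Ifih1, read 9.38, 9.27, 8.75 and 9.16 in replicates 1 to 4 labelled knockout and 9.67, 9.71, 9.78 and 9.48 in wild-type replicates 1 to 4. Ddx58 had no overlap between the groups, like Ifih1, and its difference was -0.52 (SE 0.13; adjusted p = 0.0641, and 0.0400 with the block for sex signal). Irf3, which switches on Ifnb1, had 0.029 (SE 0.085). Of these calls Tlr8 held without each array in turn, Myd88 was lost without wild-type replicates 1 or 2 (adjusted p up to 0.0533), and Tlr9, Tlr4 and Sting1 were lost without any wild-type array or replicates 2 or 4 labelled knockout, Sting1 also without replicate 1 (up to 0.121).

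Of 10 inhibitors 1 rose, against 1.56% of all genes. This was Tnfaip3, a brake on NF-kB, with a difference of 1.11 (limma adjusted p = 0.0412). Socs1, a brake on interferon receptor kinases, read 7.17, 6.73, 7.02 and 7.67 in replicates 1 to 4 labelled knockout and 6.45, 6.40, 6.22 and 6.65 in wild-type replicates 1 to 4. Its groups did not overlap, and the difference of 0.72 had adjusted p = 0.0584, or 0.0461 with the block for sex signal. Tnfaip3 was lost without any wild-type array or replicates 3 or 4 labelled knockout (adjusted p up to 0.107).

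Of 72 further genes that respond to interferon or are relatives of such genes, 6 rose and 66 did not pass. Over all genes 1.56% were called higher. The median difference of the 72 was 0.03. The rises were Ifi30 (0.97), a lysosomal thiol reductase of antigen-presenting cells, Apobec3 (0.90), a cytidine deaminase that edits viral DNA, Slfn4 (0.89) and Slfn2 (0.76) of the schlafen family, Ifitm5 (0.52) and the chemokine Ccl5 (0.52), with limma adjusted p between 0.0112 and 0.0380. Eif2ak2, the kinase PKR that stops translation on double-stranded RNA, had -0.31 (SE 0.17; adjusted p = 0.330). With the block for sex signal Mov10 and Apol9b, named here after their values were seen, passed as lower (adjusted p = 0.0389 and 0.0324). Replicate 3 labelled knockout was the lowest of all arrays for 34 of the 72 genes, against 18.7% of all genes. Ifi30 held its call without each array in turn. The other 5 lost it without 3 to 5 single arrays each, wild-type replicate 1 among them in every case (adjusted p up to 0.109).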

How the data were processed

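Liver RNA of 8 mice was measured on 8 arrays, 4 labelled IL-10 knockout and 4 wild-type, grouped by sample title. The authors deposited log2 values made by RMA, and the submitters' processing notes name R 3.0.1. The build and the probe set definition were not given in the sources used here. RMA compresses differences of low genes, and the number of arrays limits precision. The table holds 41345 rows, of which 23521 name 1 gene in the platform annotation, 1814 several and 16010 none, giving 22180 genes. Chromosomes and neighbours came from RefSeq (GRCm38.p6).

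Genes were compared with limma 3.58.1 in R 4.3.3 (lmFit and eBayes without trend, no covariates, no filter) and Benjamini-Hochberg adjustment over all genes. Named genes were all measured members, Il10, the sex-linked genes, up to 6 genes of each pathway list by smallest p among those called with or without the block for sex signal, 8 fixed pathway genes (7 measured), and the first 4 of each marker list. Members and lists were chosen with earlier results of these data known, so their counts are descriptions. In a test on simulated data, with 200 changed genes among 22180, the fit recovered 69.5% at 1.5-fold, 94% at 2-fold and 99% at 3-fold, with 7 to 12 false calls. The simulated noise was independent between genes and arrays, so these rates do not cover shifts that many genes share in an array. Alternatives covered filters, rows, scaling, variance models, blocks, thresholds and each array left out.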

Additional observations from a re-analysis of the deposited data

Results flagged for a closer look

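Among 112 groups of 4 values examined (53 named genes and 3 list medians in both genotypes), 2 held an array far from the others by Dixon's test, where chance gives about 1 in 20 groups. Trim30a read 5.54 in replicate 3 labelled knockout, against 6.43 to 6.51 in the other arrays of that group, the array in which 24 of the 33 members were lowest. Mx2 read 7.81 in wild-type replicate 1, against 7.44 to 7.50 in the other wild-type arrays, and without that array its call was lost (limma adjusted p = 0.110).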

How the results depend on the processing

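Rsad2 was called as lower in all alternatives but 1 and Ifitm6 as higher in all; in the 4 arrays with Xist signal Rsad2 had adjusted p = 0.0858. Over all 33 members 2 were called lower and 2 higher. With every row of the table tested 1 was lower and 1 higher, and 3 pathway genes were higher in place of 12. With an adjusted p below 0.1, 6 members were lower, and 2 pathway genes were lower and 20 higher, against 3.79% of all genes lower and 3.81% higher. With a common median per array 6 pathway genes were higher. With quantile normalization or cyclic loess 1 pathway gene was lower, and with the block for sex signal 3 were. The median difference of the members was -0.46 (-0.48 without the Ifitm genes) in arrays with Xist signal, where 1 member (Ifitm6) and 2 pathway genes were higher, and 2 members (Ifit1 and Cmpk2) and 1 pathway gene lower (0.600% of all genes higher, 0.830% lower), and 0.10 in arrays with Y-linked signal, where 1 member (Rsad2) was lower, 2 (Oas2 and Ifitm6) were higher and 6 pathway genes higher (0.460% of all genes higher, 0.311% lower). Leaving out each array gave 1 to 7 members lower (7 without replicate 1 labelled knockout: Ifih1, Oasl1, Mx2, Rsad2, Cmpk2, Isg15 and Bst2; 1, Rsad2, without any other array), 1 to 2 higher (1 without wild-type replicates 1 or 3 or replicate 4 labelled knockout), 0 to 4 pathway genes lower and 2 to 15 higher, a members' median of -0.29 to -0.01 (the last without replicate 3 labelled knockout), and 8 to 10 members with groups apart; the groups-apart count was made only for these fits. Over all genes 347 were higher and 352 lower, against 127 and 107 with every row tested, 209 and 330 with a common median, 225 and 272 with the replicate block, 473 and 565 with the block for sex signal, and 109 to 429 higher and 96 to 611 lower without single arrays. Il10 kept its call in each alternative that measured it; it is left out by the filter on low genes.

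Labels give both groups replicate numbers 1 to 4. Same-numbered arrays had correlations of their deviations from the group means of 0.27, 0.04, -0.10 and 0.29. Differently numbered arrays had correlations of -0.36 to 0.31, so the numbers were not treated as pairs. Replicate number also carries sex signal, with Y-linked signal in replicates 1 and 2 and Xist signal in replicates 3 and 4. With the replicate number as a block 2 members were lower and 2 higher, the same 4 genes, and 6 pathway genes higher.

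Reversed signs were all of values that did not pass, and their cause was not tested. With array weights these were Dhx58 (0.00067), Zbp1 (0.17), Oasl2 (0.072), Mx1 (0.0090) and Trim30a (0.032). With quantile normalization Zbp1 had 0.0020, with the mean of its rows Ifi35 had 0.11, and with a common median Irf3 had -0.021. In arrays with Xist signal Parp9 (-0.097), Ifitm3 (-0.016), Ifnar1 (-0.0083) and Irf3 (-0.048) reversed. In arrays with Y-linked signal Irf7 (0.14), Irf9 (0.15), Stat2 (0.14), Dhx58 (0.10), Zbp1 (0.65), Oas1g (0.33), Oasl2 (0.25), Ifit1 (0.0019), Ifit2 (0.082), Mx1 (0.090), Herc6 (0.15), Parp14 (0.13), Rtp4 (0.078), Xaf1 (0.018), Trim30a (0.20), Ifi35 (0.066), Samd9l (0.023) and Eif2ak2 (0.015) did. Leaving out single arrays turned Irf7 (-0.28 to 0.10), Stat2 (-0.32 to 0.049), Dhx58 (-0.29 to 0.099), Zbp1 (-0.24 to 0.34), Oas1g (-0.54 to 0.021), Oasl2 (-0.20 to 0.17), Ifit2 (-0.075 to 0.046), Mx1 (-0.092 to 0.066), Trim30a (-0.21 to 0.13) and Irf3 (-0.017 to 0.086).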

Other observations

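Among wild-type arrays replicate 3 stood at the upper end for the interferon-stimulated genes. It had the highest value of all 8 arrays for 16 of the 33 members, against 16.01% of all genes, and replicate 1 labelled knockout had the highest for 10, against 8.91% of all genes. Cmpk2 (8.57), Ifit1 (8.65), Oasl1 (8.87) and Ifih1 (9.88) were among those highest in wild-type replicate 3. These 2 arrays are of opposite sex signal. T and NK cell markers (median of 13 genes against the wild-type means) were at 0.17, 0.18, 0.13 and 0.17 in replicates 1 to 4 labelled knockout and -0.18, -0.03, 0.11 and 0.14 in wild-type replicates 1 to 4, and B cell markers (9 genes) lay between -0.07 and 0.01 in arrays labelled knockout and between -0.05 and 0.13 in wild-type arrays.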
